A study of Mactra quadrangularis with 9 samples.

Results

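The subject is 5 genes for cytosolic chaperones or their cochaperones, followed across 3 oxygen levels in the gill of a clam labelled Mactra quadrangularis and named Mactra veneriformis in the series title. They are a heat shock protein 22 isoform 1 (HSP22, Mve16G010930), a DnaJ homolog subfamily B member 4-like gene (DNAJB4-like, Mve03G003290), a heat shock protein 70 (HSP70, Mve07G002840), a BAG family molecular chaperone regulator 3 (BAG3, Mve18G003920) and a heat shock protein 90 (HSP90, Mve01G001290). They make up 5 of the 24722 genes in the deposited table and 5 of the 15397 genes that were tested because they averaged 1 FPKM or more. They were picked by gene identifier with their measured levels in the 3 groups in view, so their levels and folds are given as a description, without a test. The deposited ontology terms place HSP22, HSP70, DNAJB4-like and BAG3 in the cytosol and HSP70, HSP90 and BAG3 in the cytoplasm.

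Messenger RNA of gill was sequenced in 3 groups of 3 libraries: clams kept for 24 h in water with 2 mg/L of oxygen, with 4 mg/L, or, as the oxygenated control, with 7.5 mg/L. All groups shared a water temperature of 20 ± 1 °C, a salinity of 27, 40 clams in each parallel, and no feeding. Nitrogen was used to lower the oxygen, which was held within 0.2 mg/L of its target. How many clams went into a library is not given, so the p-values speak only of variation among the sequenced libraries, part of which may be technical.

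Chaperones bind proteins that are unfolded or not yet folded. Small heat shock proteins such as HSP22 hold unfolded proteins without using ATP, DnaJ (HSP40) proteins deliver clients to HSP70 and stimulate its ATPase, HSP70 folds them in cycles of binding and release, and BAG proteins make HSP70 let go of nucleotide and client. HSP90 takes over part-folded clients such as kinases and receptors. In mammals BAG3 also joins HSP70 to small heat shock proteins of the HSPB8 (HSP22) type and sends damaged clients, filamin among them, to autophagy. In bivalves, whose gill is in direct contact with the water, HSP70 and small heat shock proteins are widely used as stress markers.

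The 5 genes took 4 different orders over the 3 oxygen levels. HSP22 was high at 2 mg/L alone, DNAJB4-like and BAG3 were stepwise higher at 4 and 2 mg/L, HSP90 was highest at 4 mg/L, and HSP70, the most abundant of them in every library, was below its control level at both low oxygen levels. At 2 against 7.5 mg/L the groups did not overlap for any of the 5 genes, 4 being higher and 1 lower. The same was true of 68.3% of all genes tested, 33.5% higher and 34.8% lower. At 4 against 7.5 mg/L 3 were higher and 1 lower without overlap, as were 37.4% and 36.9% of all genes tested (74.2% together). At 2 against 4 mg/L none of the 5 overlapped, 4 being higher and 1 lower, with 33.5% higher and 34.5% lower among all genes tested (68.0% together).

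HSP22 (chromosome 16, 31181349 to 31183235, plus strand), the holding chaperone of the set, had 83.9, 86.3 and 106.5 CPM (counts scaled to a common library size with TMM factors) in the libraries at 2 mg/L, against 3.68, 3.41 and 3.75 CPM at 4 mg/L and 3.68, 3.26 and 3.55 CPM at 7.5 mg/L. Every library at 2 mg/L stood far above the other 6, and the groups at 4 and 7.5 mg/L overlapped. The means were 92.2 ± 12.4 CPM at 2 mg/L, 3.61 ± 0.178 CPM at 4 mg/L and 3.50 ± 0.215 CPM at 7.5 mg/L (SD, n = 3 each). HSP22 was 26.4-fold higher at 2 than at 7.5 mg/L (log2 fold 4.72, SE 0.12) and 25.5-fold higher at 2 than at 4 mg/L, while the log2 fold at 4 against 7.5 mg/L was 0.05 (SE 0.14). The low groups rested on 105 to 121 counts per library and the libraries at 2 mg/L on 2459 to 2664. This order, 2 mg/L above both others with 4 and 7.5 mg/L overlapping, was found in 5.57% of all genes tested.

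DNAJB4-like (chromosome 3, 8674094 to 8677122, plus strand), an HSP40 that hands clients to HSP70, had 192.5, 189.6 and 181.9 CPM at 2 mg/L, 101.1, 105.0 and 110.6 CPM at 4 mg/L and 16.9, 16.8 and 19.1 CPM at 7.5 mg/L. The 3 groups formed separate steps. Its level was 10.7-fold higher at 2 than at 7.5 mg/L (log2 fold 3.42, SE 0.06) and 5.99-fold higher at 4 than at 7.5 mg/L (log2 fold 2.58, SE 0.06). Between the low oxygen levels it was 1.78-fold higher at 2 than at 4 mg/L (log2 fold 0.83, SE 0.06).

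BAG3 (chromosome 18, 9398929 to 9402111, minus strand), the nucleotide exchange factor, followed the same order with smaller steps. It had 143.1, 138.6 and 159.9 CPM at 2 mg/L, 101.6, 104.8 and 106.0 CPM at 4 mg/L and 28.0, 28.6 and 28.3 CPM at 7.5 mg/L. No libraries overlapped between groups. BAG3 was 5.20-fold higher at 2 than at 7.5 mg/L (log2 fold 2.38, SE 0.06), 3.68-fold higher at 4 than at 7.5 mg/L (log2 fold 1.88) and 1.41-fold higher at 2 than at 4 mg/L (log2 fold 0.50, SE 0.06). The order that DNAJB4-like and BAG3 share, 2 above 4 above 7.5 mg/L, was found in 5.67% of all genes tested.

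HSP70 (chromosome 7, 8233671 to 8240425, minus strand), the ATP-driven folding chaperone, had 1912, 1926 and 1887 CPM at 2 mg/L, 1588, 1603 and 1653 CPM at 4 mg/L and 2115, 2163 and 2116 CPM at 7.5 mg/L. The control libraries were the highest and the libraries at 4 mg/L the lowest, without overlap. The log2 fold was -0.16 (SE 0.03, 1.12-fold lower) at 2 against 7.5 mg/L, -0.40 (1.32-fold lower) at 4 against 7.5 mg/L and 0.24 (1.18-fold higher) at 2 against 4 mg/L. The deposited description does not say whether this gene is the constitutive or the stress-inducible type of HSP70. Its order, 7.5 above 2 above 4 mg/L, was found in 7.88% of all genes tested.

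HSP90 (chromosome 1, 3408066 to 3415342, minus strand) had 1049, 1105 and 1112 CPM at 2 mg/L, 1305, 1320 and 1270 CPM at 4 mg/L and 708, 712 and 722 CPM at 7.5 mg/L. All 6 low oxygen libraries were above the controls, and the libraries at 4 mg/L were above those at 2 mg/L. HSP90 was 1.52-fold higher at 2 than at 7.5 mg/L (log2 fold 0.61, SE 0.03), 1.82-fold higher at 4 than at 7.5 mg/L (log2 fold 0.86) and 1.19-fold lower at 2 than at 4 mg/L (log2 fold -0.25). The order 4 above 2 above 7.5 mg/L was found in 8.03% of all genes tested.

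**Figure D1:**
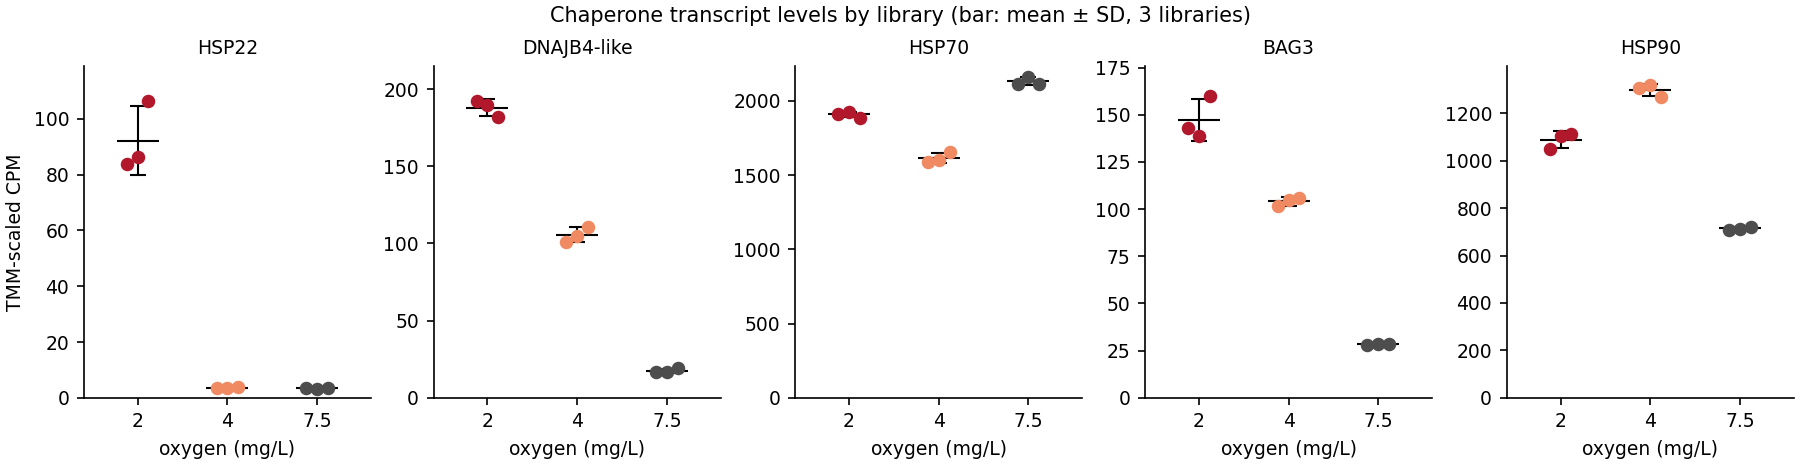
TMM-scaled CPM of each gene (vertical axes, starting at 0, a separate scale per gene) against dissolved oxygen in mg/L, with 1 point per library and bars for the mean ± SD of 3 libraries. HSP22 stands at 83.9 to 106.5 CPM at 2 mg/L and under 4 CPM elsewhere, DNAJB4-like and BAG3 form steps, and HSP70 and HSP90 place the group at 4 mg/L at opposite ends.

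The direction of each of these folds was the same with TMM, median-of-ratios and total-count scaling, except for HSP22 at 4 against 7.5 mg/L, which lay within 0.1 of 0 on the log2 scale. With total counts the median of all tested genes at 2 against 7.5 mg/L moved to -0.23, against -0.03 with TMM. On that scale HSP70 was at -0.36 and HSP90 at 0.41. The deposited FPKM values carry no TMM factor and so share the lower level of the libraries at 2 mg/L. Ratios between genes within a library do not depend on the scaling, whereas the FPKM averages and sums given below do.

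Per length, HSP70 averaged 676 FPKM at 2 mg/L, 628 FPKM at 4 mg/L and 865 FPKM at 7.5 mg/L, ranks 139, 148 and 121 of all genes in the table. HSP90 averaged 388, 508 and 291 FPKM at 2, 4 and 7.5 mg/L. For DNAJB4-like the averages were 62.0, 38.2 and 6.64 FPKM, for BAG3 57.0, 44.3 and 12.6 FPKM, and for HSP22 41.9, 1.80 and 1.82 FPKM at the same levels. HSP22 was thus the least abundant of the 5 in every group, and it ranked 1474 at 2 mg/L, 12914 at 4 mg/L and 12569 at 7.5 mg/L. DNAJB4-like was below BAG3 at 4 and 7.5 mg/L, and at 2 mg/L the ratio of DNAJB4-like to BAG3 ran from 0.968 to 1.17 between libraries, so their order there did not hold in each library.

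Within the set, the proportions differed between oxygen levels more than the sum did. Together the 5 genes took 0.316% of all counts at 2 mg/L, 0.315% at 4 mg/L and 0.307% at 7.5 mg/L, and their summed FPKM was 1225 ± 6.56, 1220 ± 9.54 and 1177 ± 18.3 (SD, n = 3 each), with every low oxygen library above the controls. Neither the share nor the sum carries the TMM factor, which was 0.918 to 0.935 at 2 mg/L and 1.06 to 1.07 at 7.5 mg/L. With TMM scaling the sum at 2 mg/L would stand further above the control, so its near-level value depends on the scaling. HSP70 contributed 55.2% of that sum at 2 mg/L, 51.5% at 4 mg/L and 73.5% at 7.5 mg/L. For each 100 FPKM of HSP70 there were 9.17 ± 0.20 FPKM of DNAJB4-like at 2 mg/L, 6.08 ± 0.152 at 4 mg/L and 0.768 ± 0.0618 at 7.5 mg/L. The gene for the protein that feeds clients to HSP70 thus stood at a different proportion to HSP70 at each level, with no overlap between groups.

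BAG3, which releases clients from HSP70, stood at 8.44 ± 0.735 FPKM per 100 of HSP70 at 2 mg/L, 7.05 ± 0.0859 at 4 mg/L and 1.45 ± 0.0091 at 7.5 mg/L. HSP22 stood at 6.21 ± 0.898, 0.286 ± 0.0123 and 0.210 ± 0.0158 FPKM per 100 of HSP70 at the same levels. HSP22 relative to BAG3 was 73.4 FPKM per 100 at 2 mg/L, 4.06 at 4 mg/L and 14.5 at 7.5 mg/L, so the ratio was lowest at 4 mg/L, where BAG3 was up and HSP22 was not. Whether this HSP22 corresponds to HSPB8, the partner of BAG3 in mammals, was not tested, and the shared name alone does not show it. The ratio of HSP90 to HSP70 was 0.574 ± 0.0205 at 2 mg/L, 0.809 ± 0.0317 at 4 mg/L and 0.337 ± 0.0062 at 7.5 mg/L, again without overlap between groups.

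**Figure D2:**
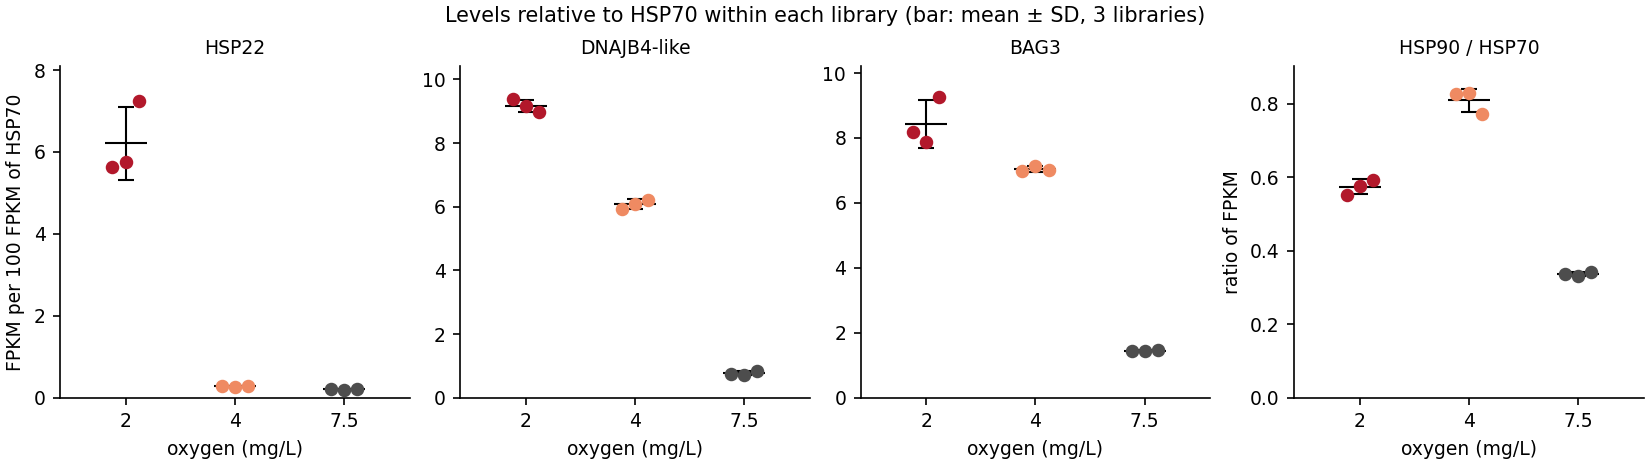
FPKM of HSP22, DNAJB4-like and BAG3 per 100 FPKM of HSP70, and the ratio of HSP90 to HSP70, within each library (vertical axes, starting at 0) against dissolved oxygen in mg/L; points are libraries and bars the mean ± SD of 3. BAG3 reaches 8.44 at 2 mg/L and 7.05 at 4 mg/L, against 1.45 at 7.5 mg/L, and the HSP90 ratio peaks at 0.809 at 4 mg/L.

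Several of these genes have copies in the genome that carry the same description, and such copies may share reads, so a split between them is uncertain where their sequences are near-identical. In the comparisons below a gene was called with edgeR's quasi-likelihood test on counts at a Benjamini-Hochberg adjusted p under 0.05 over all genes tested. By that rule 63.5% of all genes were called at 2 against 7.5 mg/L (31.5% higher, 32.0% lower), 69.9% at 4 against 7.5 mg/L (35.4% higher, 34.5% lower) and 63.7% at 2 against 4 mg/L (31.6% higher, 32.1% lower). Adjusted p-values below are from this test.

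HSP70 had the most copies: 11 genes share the description, 7 of them on chromosome 2. Of the 10 others, 9 were tested. At 2 against 7.5 mg/L 8 rose and 1 fell, at 4 against 7.5 mg/L 1 rose and 4 fell, and at 2 against 4 mg/L 8 rose and none fell. With total counts 5 rose and 2 fell at 2 against 7.5 mg/L. Of the 9, Mve02G001220, Mve02G001250 and Mve02G013580 passed the expression filter only through their level at 2 mg/L, so they had to be high there. Of the other 6, 5 rose and 1 fell at 2 against 7.5 mg/L, and 1 rose and 3 fell at 4 against 7.5 mg/L.

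The second abundant copy, Mve07G002850, lies beside the first on chromosome 7 in the opposite direction, with 2970 bases between their starts. It averaged 1655 CPM at 2 mg/L, 1448 CPM at 4 mg/L and 1534 CPM at 7.5 mg/L, a small rise at 2 against 7.5 mg/L (1.08-fold, adjusted p = 0.00303) that turned into a fall with total counts (adjusted p = 0.00613). At 4 against 7.5 mg/L it fell 1.06-fold (adjusted p = 0.0156), a call that ended without control replicate 2 (adjusted p = 0.0557). Within a library, the ratio of Mve07G002840 to this neighbour was 1.12 ± 0.0369 at 2 mg/L, 1.08 ± 0.0201 at 4 mg/L and 1.34 ± 0.0103 at 7.5 mg/L, so the pair was unequal by more at 7.5 mg/L than in any low oxygen library. In FPKM, which carry no TMM factor, the pair summed to 1283 at 2 mg/L, 1211 at 4 mg/L and 1509 at 7.5 mg/L. With TMM the drop at 2 mg/L is smaller, Mve07G002840 being 1.12-fold lower and its neighbour 1.08-fold higher than at 7.5 mg/L.

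The other 9 copies summed to 56.8 ± 1.81 FPKM at 2 mg/L, 16.8 ± 0.22 FPKM at 4 mg/L and 20.1 ± 3.07 FPKM at 7.5 mg/L. Among them Mve02G010770 had 51.1, 57.8 and 59.0 CPM at 2 mg/L, 15.0, 9.63 and 12.6 CPM at 4 mg/L and 17.8, 13.5 and 17.1 CPM at 7.5 mg/L. It rose 3.47-fold at 2 against 7.5 mg/L (adjusted p = 5.46e-09), while at 4 against 7.5 mg/L its groups overlapped and its fall to 0.769 of the control level (adjusted p = 0.0245) was lost when any of 3 libraries was left out (adjusted p up to 0.138). Also on chromosome 2, Mve02G010230 rose 4.34-fold (adjusted p = 1.87e-08) and Mve02G010430 3.58-fold (adjusted p = 2.69e-07) at 2 against 7.5 mg/L. Mve12G005440 rose 6.26-fold at 2 mg/L (adjusted p = 2.52e-07) and 1.71-fold at 4 mg/L (adjusted p = 0.0191), both against 7.5 mg/L, and the second call ended without 4 mg/L replicate 3 or control replicate 2 (adjusted p up to 0.0956).

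The copies that passed the filter through 2 mg/L alone were 3.90-fold (Mve02G001250), 2.30-fold (Mve02G001220) and 2.18-fold (Mve02G013580) higher at 2 than at 7.5 mg/L. With total counts Mve02G001220 (adjusted p = 0.0897) and Mve02G013580 (adjusted p = 0.0529) were not called, and leaving out any of 5 libraries ended the call of Mve02G001220 (adjusted p up to 0.191) and any of 4 that of Mve02G013580 (adjusted p up to 0.0823). Mve02G013580 fell 3.84-fold at 4 against 7.5 mg/L (adjusted p = 0.00131). Mve03G008210 was the copy that fell at 2 against 7.5 mg/L, 1.84-fold (adjusted p = 0.0158), which ended without 2 mg/L replicate 1 or control replicate 1 (adjusted p up to 0.0641), and it fell 2.17-fold at 4 against 7.5 mg/L (adjusted p = 0.003).

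**Figure D3:**
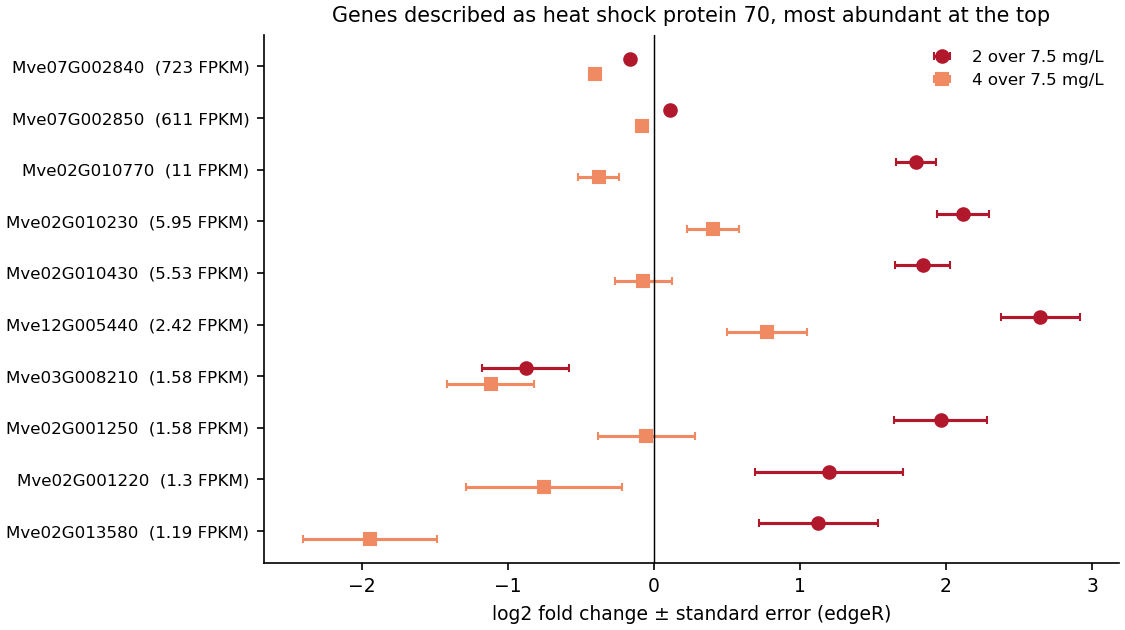
Log2 fold change ± SE from edgeR (horizontal axis) for the 10 tested genes described as heat shock protein 70, ordered by mean FPKM over 9 libraries (in brackets), at 2 over 7.5 mg/L (circles) and 4 over 7.5 mg/L (squares). The abundant pair lies near 0, 7 of the 8 rarer copies lie to the right at 2 mg/L, and Mve03G008210 lies to the left in both comparisons. Of the 7, Mve02G001220, Mve02G001250 and Mve02G013580 passed the expression filter through 2 mg/L alone, which fixed their side there.

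The other genes had fewer copies. The second HSP90 gene, Mve02G001700 on chromosome 2, had 1261, 1300 and 1296 CPM at 2 mg/L, 1286, 1309 and 1313 CPM at 4 mg/L and 853, 858 and 881 CPM at 7.5 mg/L. It rose 1.49-fold at 2 against 7.5 mg/L (adjusted p = 2.67e-11) and 1.51-fold at 4 against 7.5 mg/L (adjusted p = 1.26e-11), and its low oxygen groups overlapped. The HSP90 copies were close to equal at 2 mg/L (ratio of Mve01G001290 to Mve02G001700 1.01 ± 0.0157) and at 7.5 mg/L (0.989 ± 0.0070), whereas at 4 mg/L the ratio was 1.19 ± 0.0311.

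The second DNAJB4-like gene, Mve03G003380, lies 146.5 kb from the first on chromosome 3, on the other strand, and had the same order of groups. It had 43.5, 43.6 and 46.1 CPM at 2 mg/L, 22.6, 23.2 and 23.4 CPM at 4 mg/L and 4.80, 5.91 and 5.23 CPM at 7.5 mg/L. It rose 8.33-fold at 2 (adjusted p = 1.14e-13) and 4.32-fold at 4 mg/L (adjusted p = 1.08e-11), each against 7.5 mg/L, and was 1.93-fold higher at 2 than at 4 mg/L (adjusted p = 9.23e-08). Both copies together held 105 FPKM at 2 mg/L, 62.8 FPKM at 4 mg/L and 12.5 FPKM at 7.5 mg/L. For HSP22, Mve03G005290 shares the description. It averaged 2.37 FPKM at 2 mg/L, 0.701 FPKM at 4 mg/L and 0.943 FPKM at 7.5 mg/L, and it passed the filter only through 2 mg/L, so its higher level there was fixed by the filter. Its call at 2 against 7.5 mg/L ended with total counts (adjusted p = 0.0664) and when any of 4 libraries was left out (adjusted p up to 0.141). A further copy, Mve03G002560, was under the filter. BAG3 had no copy with its description.

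Around the 5 genes, a network of 77 further chaperone genes was taken by words in the deposited descriptions, and 68 of them were tested. For the network and every list below, the shares to compare are those called over all genes tested. They were 31.5% higher and 32.0% lower at 2 against 7.5 mg/L, and 35.4% and 34.5% at 4 against 7.5 mg/L. At 2 against 4 mg/L they were 31.6% and 32.1%. At 2 against 7.5 mg/L 31 rose and 25 fell, with a median log2 fold of -0.03 in the network and in all genes alike. With total counts the split was 18 higher and 34 lower, against 3709 higher and 6621 lower among all genes. At 4 against 7.5 mg/L 29 rose and 18 fell (median log2 fold 0.12, all genes -0.01), and at 2 against 4 mg/L 17 rose and 31 fell (median -0.21, all genes -0.02). Of the 68, 9 passed the filter only through the group where they were highest. Among the other 59, 26 rose and 22 fell at 2 against 7.5 mg/L, 29 rose and 14 fell at 4 against 7.5 mg/L, and 11 rose and 30 fell at 2 against 4 mg/L.

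Most of the tested small heat shock proteins rose at both low oxygen levels. Of 11 genes besides HSP22, 8 were tested, of which 7 rose and 1 fell at 2 against 7.5 mg/L (5 and 1 with total counts). At 4 against 7.5 mg/L 6 rose and none fell. Mve08G002290 and Mve03G005290 passed only through 2 mg/L and so had to be high there. Of the other 6, 5 rose and 1 fell at 2 against 7.5 mg/L (median log2 fold 1.61, all genes -0.03), and 6 rose at 4 against 7.5 mg/L (median 1.28, all genes -0.01). The one that fell was an alpha-crystallin B chain-like gene (Mve02G012900), 1.81-fold (adjusted p = 0.0296), with overlapping groups, and leaving out any of 4 libraries ended the call (adjusted p up to 0.113). In the family, 6 genes lie together on chromosome 3 and may share reads.

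Mve08G002290, described as a partial heat shock protein 22, had 13.5, 17.6 and 15.6 CPM at 2 mg/L, 0.680, 0.496 and 0 CPM at 4 mg/L and 0, 0.529 and 0 CPM at 7.5 mg/L. Like HSP22, it stood out at 2 mg/L, and it was not called at 4 against 7.5 mg/L (adjusted p = 0.311). Its fitted fold of 82.5 at 2 against 7.5 mg/L depends on the prior count because its control counts are near 0, and the filter fixed its direction. On chromosome 3, Mve03G005320 rose at both levels, 12.4-fold at 2 mg/L (adjusted p = 3.29e-05) and 7.50-fold at 4 mg/L (adjusted p = 0.000244), against a control of under 1 CPM. Mve03G005280 rose 5.87-fold at 2 mg/L (adjusted p = 9.72e-07) and 2.38-fold at 4 mg/L (adjusted p = 0.00121).

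An alpha-crystallin B chain-like gene, Mve14G009450, another small heat shock protein, rose 4.46-fold at 2 mg/L (adjusted p = 7.1e-06) and 2.99-fold at 4 mg/L (adjusted p = 0.000144). Mve03G005270 had its larger rise at 4 mg/L: it rose 1.66-fold at 2 against 7.5 mg/L (adjusted p = 0.0147), a call that ended without control replicate 1 or 2 (adjusted p up to 0.0621) and with total counts (adjusted p = 0.0606), and 2.47-fold at 4 against 7.5 mg/L (adjusted p = 0.000135). All 12 small heat shock protein genes summed to 97.0 FPKM at 2 mg/L, 38.3 FPKM at 4 mg/L and 20.1 FPKM at 7.5 mg/L. HSP22 made up 43.1% of that sum at 2 mg/L, 4.70% at 4 mg/L and 9.06% at 7.5 mg/L.

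The DnaJ family was split in both comparisons. Of 22 tested genes besides DNAJB4-like, 7 rose and 11 fell at 2 against 7.5 mg/L (4 and 13 with total counts), and 10 rose and 7 fell at 4 against 7.5 mg/L. Of these, 3 passed the filter only through their highest group, 2 through 7.5 mg/L and 1 through 4 mg/L. Without them 7 rose and 9 fell at 2 against 7.5 mg/L (median log2 fold -0.20, all genes -0.03), and 10 rose and 5 fell at 4 against 7.5 mg/L. After the DNAJB4-like copy, the largest rises at 2 mg/L were in a DnaJ B14-like gene (Mve01G020900), at 20.9 ± 0.22 CPM at 2 mg/L, 21.6 ± 0.956 CPM at 4 mg/L and 7.57 ± 0.231 CPM at 7.5 mg/L, and in a DnaJ C1-like gene (Mve12G006990). Both types are anchored in the endoplasmic reticulum membrane in mammals. The B14-like gene rose 2.76-fold at 2 mg/L (adjusted p = 3.26e-09) and 2.84-fold at 4 mg/L (adjusted p = 1.49e-09). The C1-like gene rose 2.14-fold at 2 mg/L (adjusted p = 1.11e-05) and 3.71-fold at 4 mg/L (adjusted p = 9.77e-09). A DnaJ C9-like gene (Mve17G001310), in mammals a histone cochaperone, fell 2.19-fold at 2 mg/L (adjusted p = 0.000809) and was not called at 4 mg/L (1.12-fold, adjusted p = 0.561).

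Of 11 tested cytosolic HSP70 and HSP110 genes, 9 rose and 1 fell at 2 against 7.5 mg/L (5 and 3 with total counts), and 3 rose and 4 fell at 4 against 7.5 mg/L. Without the 3 copies that passed the filter through 2 mg/L alone, 6 of 8 rose and 1 fell at 2 against 7.5 mg/L, and 3 rose and 3 fell at 4 against 7.5 mg/L. Besides the HSP70 copies described above, the list held an HSP70 protein 4-like gene (Mve09G007520), of the HSP110 type that acts as an exchange factor for HSP70. It averaged 70.8 ± 7.57 CPM at 2 mg/L, 115 ± 7.70 CPM at 4 mg/L and 55.8 ± 0.28 CPM at 7.5 mg/L. Its rise was 1.27-fold at 2 mg/L (adjusted p = 0.000622), lost with total counts (adjusted p = 0.101), and 2.07-fold at 4 mg/L (adjusted p = 1.19e-09). Like HSP90 it was highest at 4 mg/L.

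Among 5 other BAG genes and HSP70 regulators, 3 rose and 1 fell at 2 against 7.5 mg/L (1 and 2 with total counts), and 1 rose and 1 fell at 4 against 7.5 mg/L. BAG2 (Mve03G006050), which slows the HSP70 ligase CHIP, had 32.0, 32.3 and 30.3 CPM at 2 mg/L, 12.5, 13.4 and 12.8 CPM at 4 mg/L and 23.5, 25.6 and 22.6 CPM at 7.5 mg/L. It rose 1.32-fold at 2 mg/L (adjusted p = 0.000996; 0.0659 with total counts) and fell 1.85-fold at 4 mg/L (adjusted p = 2.49e-07), so at 4 mg/L it and BAG3 were on opposite sides of their controls. HSP70-binding protein 1 (Mve03G014040), another exchange factor, rose 1.79-fold at 2 mg/L (adjusted p = 0.0101; 0.061 without 2 mg/L replicate 2) and 2.61-fold at 4 mg/L (adjusted p = 0.000155). The HSC70-interacting protein (Mve09G000880), which holds HSP70 in its client-bound state, fell 1.78-fold at 2 mg/L (adjusted p = 1.14e-06) and was not called at 4 mg/L (1.07-fold lower, adjusted p = 0.358). CHIP itself (Mve01G011720), which ubiquitinates HSP70 clients, was not called in any of the 3 comparisons, and with total counts it fell at 2 against 7.5 mg/L (adjusted p = 0.0315).

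Of 8 HSP90 and cochaperone genes, 3 rose and 3 fell at 2 against 7.5 mg/L (2 and 4 with total counts), and 4 rose and 3 fell at 4 against 7.5 mg/L. Of the 8, 2 had the group order of HSP90, 4 above 2 above 7.5 mg/L without overlap, an order found in 8.03% of all genes tested. Among the client adaptors, Cdc37 and stress-induced phosphoprotein 1 were highest at 4 mg/L. Cdc37 (Mve05G006370), which brings kinases to HSP90, rose 1.24-fold at 2 mg/L (adjusted p = 0.00095; 0.192 with total counts) and 1.84-fold at 4 mg/L (adjusted p = 5.68e-09), and stress-induced phosphoprotein 1 (Mve02G015320), which links HSP70 to HSP90, rose 1.39-fold at 2 mg/L (adjusted p = 1.82e-05) and 1.64-fold at 4 mg/L (adjusted p = 9.22e-08). An activator of the HSP90 ATPase (Mve02G013660) averaged 9.20 ± 1.37 CPM at 2 mg/L, 23.8 ± 2.30 CPM at 4 mg/L and 10.9 ± 2.21 CPM at 7.5 mg/L, and rose 2.17-fold at 4 mg/L (adjusted p = 5.44e-06). The myosin chaperone unc-45 homolog B (Mve18G003950) fell 2.51-fold at 2 mg/L (adjusted p = 1.22e-05).

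**Figure D4:**
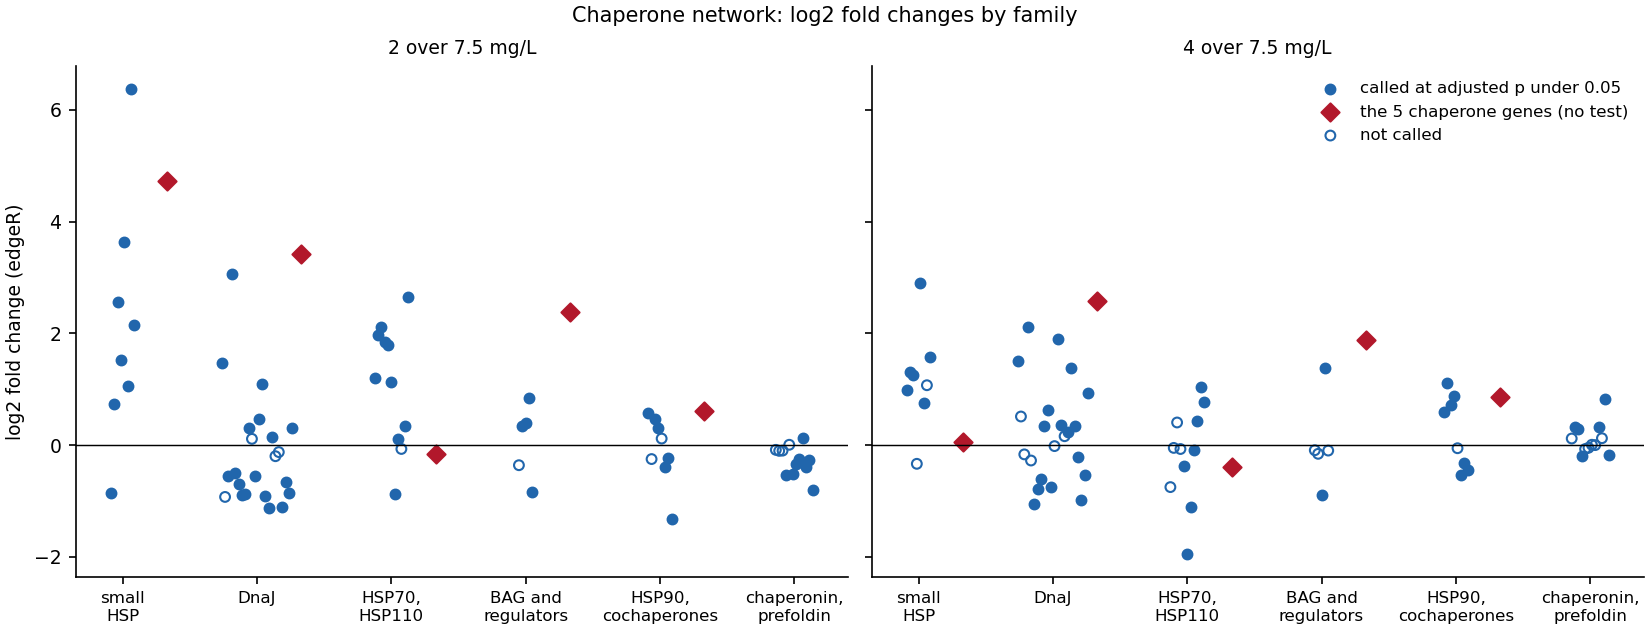
Log2 fold change from edgeR (vertical axis) of every tested gene of 6 chaperone families at 2 over 7.5 mg/L (left) and 4 over 7.5 mg/L (right); filled circles passed an adjusted p under 0.05, open circles did not, and diamonds are the 5 described genes, which have no test. The highest point at 2 mg/L, the small heat shock protein Mve08G002290, passed the expression filter through 2 mg/L alone, and the chaperonin and prefoldin genes lie within 1 log2 unit of 0 in both comparisons.

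The chaperonin and prefoldin genes, which fold actin and tubulin, were mostly lower at 2 mg/L than in either other group. At 2 against 7.5 mg/L 7 of 12 fell and 1 rose (10 and none with total counts), at 4 against 7.5 mg/L 4 rose and 2 fell, and at 2 against 4 mg/L 11 fell and none rose. T-complex protein 1 alpha (Mve18G009490) fell 1.75-fold at 2 mg/L, to 64.2 ± 4.99 CPM against 112 ± 1.15 CPM at 7.5 mg/L (adjusted p = 3.08e-09). Prefoldin subunit 2 (Mve07G002830), whose gene lies 1.489 kb from HSP70, fell 1.43-fold at 2 mg/L (adjusted p = 0.000233). Prefoldin subunit 6 (Mve14G001090) fell 1.21-fold at 2 mg/L (adjusted p = 0.00855) and rose 1.77-fold at 4 mg/L (adjusted p = 1.17e-07). T-complex protein 1 beta (Mve05G003670) fell 1.46-fold at 2 mg/L (adjusted p = 3.5e-07), and prefoldin subunit 3 (Mve05G002550) rose 1.26-fold at 4 mg/L (adjusted p = 0.0101). The one that rose at 2 mg/L was T-complex protein 1 zeta (Mve11G003630), 1.09-fold (adjusted p = 0.034), a call that leaving out any of 4 libraries ended (adjusted p up to 0.131). It rose 1.24-fold at 4 mg/L (adjusted p = 1.2e-05).

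Heat shock factors are the transcription factors that act on heat shock genes. The one described as heat shock factor protein-like (Mve06G014920) had 6.99, 7.39 and 5.88 CPM at 2 mg/L, 12.7, 11.8 and 10.1 CPM at 4 mg/L and 3.86, 3.67 and 2.50 CPM at 7.5 mg/L. It rose 2.03-fold at 2 (adjusted p = 0.000275) and 3.46-fold at 4 mg/L (adjusted p = 3.99e-07) against 7.5 mg/L, and was 1.71-fold lower at 2 than at 4 mg/L (adjusted p = 0.00175). Its groups had the order of HSP90, not that of HSP22, DNAJB4-like or BAG3. The second gene, Mve06G008710, is described as a heat shock transcription factor, X-linked member 4-like, and passed the filter only through its control level. It averaged 0.186 CPM at 2 mg/L and 5.17 CPM at 7.5 mg/L and had no counts at 4 mg/L, where it was at least 167-fold lower than at 7.5 mg/L by a floor of 3 counts over the group.

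Mitochondrial chaperones and BAG3-linked autophagy genes were kept apart from the network count. Of 4 mitochondrial chaperones, 2 rose and 1 fell at 2 against 7.5 mg/L and 3 rose at 4 against 7.5 mg/L, with mortalin (Mve13G010080), the mitochondrial HSP70, at 1.93-fold at 2 mg/L (adjusted p = 5.86e-11) and 2.33-fold at 4 mg/L (adjusted p = 1.49e-12). The mitochondrial HSP90 relative HSP75 (Mve09G008140) rose 1.52-fold at 2 mg/L (adjusted p = 3.88e-05) and 1.73-fold at 4 mg/L (adjusted p = 1.38e-06). HSP60 (Mve12G000300), the mitochondrial chaperonin, fell 1.34-fold at 2 mg/L (adjusted p = 0.000354) and rose 1.47-fold at 4 mg/L (adjusted p = 1.37e-05).

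Of 11 genes for the autophagy receptors and clients that BAG3 works with in mammals, 8 rose and 2 fell at 2 against 7.5 mg/L (6 and 2 with total counts). At 4 against 7.5 mg/L 3 rose and 7 fell, and at 2 against 4 mg/L 10 rose and 1 fell. A filamin-C gene passed the filter only through 7.5 mg/L, which fixed its falls, and without it 8 rose and 1 fell at 2 against 7.5 mg/L, and 3 rose and 6 fell at 4 against 7.5 mg/L. Sequestosome-1, the receptor that ties ubiquitinated cargo to the autophagosome, has 4 genes. Mve09G009650 rose 2.41-fold at 2 mg/L (adjusted p = 7.03e-15) and 1.57-fold at 4 mg/L (adjusted p = 2.97e-11), while Mve09G009330 had 262, 254 and 243 CPM at 2 mg/L, 62.5, 61.9 and 64.4 CPM at 4 mg/L and 160, 150 and 151 CPM at 7.5 mg/L. The second gene rose 1.65-fold at 2 mg/L (adjusted p = 6.06e-10) and fell 2.44-fold at 4 mg/L (adjusted p = 3.14e-13). Mve09G009340 also rose at 2 mg/L (2.36-fold, adjusted p = 1e-13) and fell at 4 mg/L (1.35-fold, adjusted p = 7.38e-08). All 4 genes lie on chromosome 9 and may share reads. Light chain 3C (Mve02G007220), an autophagosome membrane protein, was not called at 2 mg/L (adjusted p = 0.881) and fell 2.04-fold at 4 mg/L (adjusted p = 2.82e-07).

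Filamin, the actin crosslinker that BAG3 clears in mammalian muscle, also has several genes. Filamin-A-like Mve01G007400 had 207, 212 and 265 CPM at 2 mg/L, 88.5, 92.8 and 95.3 CPM at 4 mg/L and 66.3, 58.3 and 54.3 CPM at 7.5 mg/L. It rose 3.82-fold at 2 mg/L (adjusted p = 6.01e-12) and 1.55-fold at 4 mg/L (adjusted p = 5.95e-06). Filamin-A-like Mve15G004040 fell 2.49-fold at 2 mg/L (adjusted p = 1.43e-13) and 1.74-fold at 4 mg/L (adjusted p = 6.13e-11), and filamin-C Mve15G004200 averaged 0.897 FPKM at 2 mg/L, 0.291 FPKM at 4 mg/L and 2.25 FPKM at 7.5 mg/L. The separate HSP70 12A and 12B family, with 98 genes and 71 tested, had 35 higher and 21 lower at 2 against 7.5 mg/L and 23 higher and 38 lower at 4 against 7.5 mg/L (34 and 21, and 21 and 37, among the 68 that did not pass the filter through 1 group alone). Within it, Mve09G010120 rose 7.04-fold at 2 mg/L (adjusted p = 6.18e-10) and 6.17-fold at 4 mg/L (adjusted p = 1.06e-09).

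Whether a gene shared its pattern with its neighbours on the chromosome was read from the nearest 2 genes on each side. A ribosome production factor 1-like gene (Mve03G003280), which starts 0.296 kb from the start of DNAJB4-like on the other strand, and Mve03G003270 were not called in any of the 3 comparisons, with folds between 0.95 and 1.07. Next to HSP22, Mve16G010940 fell 1.25-fold at 2 mg/L (adjusted p = 1.79e-06) and 1.47-fold at 4 mg/L (adjusted p = 1.15e-09), Mve16G010910 fell 1.51-fold at 2 mg/L (adjusted p = 0.00268), Mve16G010920 was not called, and Mve16G010950 rose at 4 mg/L (log2 fold 1.07, adjusted p = 0.000332). Beside BAG3, the ribosomal protein gene L19 (Mve18G003930) fell 1.07-fold at 2 mg/L (adjusted p = 0.0143; up to 0.0636 without 2 mg/L replicate 1 or control replicate 1), phosphofructokinase (Mve18G003940), a glycolytic enzyme, fell 1.39-fold (adjusted p = 0.00025) and gamma-glutamyltranspeptidase 1 (Mve18G003880) 2.07-fold (adjusted p = 1.25e-13). At 4 against 7.5 mg/L gamma-glutamyltranspeptidase 1 rose 1.60-fold (adjusted p = 2.39e-11) and L19 fell 1.39-fold (adjusted p = 1.21e-09). Phosphofructokinase rose 1.16-fold there (adjusted p = 0.0394, up to 0.147 with 1 library left out). None of the few tested neighbours of HSP22, DNAJB4-like or BAG3 was called higher at 2 against 7.5 mg/L, where 31.5% of all genes tested were. Downstream of DNAJB4-like, Mve03G003310 and Mve03G003320 were under the filter and untested, so for that gene only the upstream side is covered. Another BAG3 neighbour, Mve18G003900, was under the filter and untested. It averaged 0.597, 0.738 and 0.118 FPKM at 2, 4 and 7.5 mg/L, every low oxygen library being above the controls. Beside HSP90, ensconsin (Mve01G001280), a microtubule-binding protein, had the same order of groups, at 2.61-fold at 2 mg/L (adjusted p = 0.000122) and 5.26-fold at 4 mg/L (adjusted p = 1.71e-07). Beside HSP70, the RNA-binding protein 7 gene (Mve07G002860) fell 2.09-fold at 2 mg/L (adjusted p = 0.000175).

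The genes whose profiles were most like each of the 5 were found by the root mean square difference of log2 CPM over the 9 libraries, each gene centred on its own mean. This is a description of likeness over 9 libraries that share their depth and handling. HSP22 had no gene within 0.25. Its nearest included Mve06G001550, Mve12G009940 and Mve09G001340, which have no description and 0 counts in all 6 libraries at 4 and 7.5 mg/L. Their likeness depends on the prior count of 2 added for log2 CPM. Their fitted log2 folds at 2 against 7.5 mg/L were 9.15 to 9.53, against 4.72 for HSP22. The nearest genes also held Mytimacin-5 (Mve12G005300), an antimicrobial peptide type of mussels, at 24.6 ± 1.60 CPM at 2 mg/L, 0.879 ± 0.253 CPM at 4 mg/L and 0.950 ± 0.384 CPM at 7.5 mg/L, and the zinc transporter ZIP12 (Mve07G001290), at 37.6 ± 3.72, 0.942 ± 0.164 and 0.790 ± 0.240 CPM. The undescribed genes and ZIP12 were under 1 FPKM at 4 and 7.5 mg/L, so they passed the filter through 2 mg/L alone.

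DNAJB4-like had 12 genes within 0.25. The nearest were a hepatocyte growth factor receptor-like gene (Mve08G004560, difference 0.160), an active breakpoint cluster region-related gene (Mve11G014830), FAM49B (Mve03G007050), the ubiquitin ligase UNKL (Mve01G006960) and the osmotic stress factor NFAT5 (Mve06G004390). BAG3 had 70 within 0.25, led by Mve10G010790 without a description (0.0792), the antiproliferative gene BTG1 (Mve08G009650, 0.0847), an IMP-L2-like insulin-binding protein (Mve13G003570), a PDZ and LIM domain protein 1-like gene (Mve16G007800) and an NLRP12-like gene (Mve15G002500). BTG1 was abundant, at 4049 ± 132 CPM at 2 mg/L, 2649 ± 27.5 CPM at 4 mg/L and 727.5 ± 31.1 CPM at 7.5 mg/L. Although they share an order, DNAJB4-like and BAG3 differed by 0.443, and BAG3 was the 87th most like DNAJB4-like.

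The shallow profiles of HSP90 and HSP70 were far more common, with 1228 and 2644 genes within 0.25. Nearest to HSP90 were Mve03G015400, Mve04G000300, an ADP-ribosylation factor 1-like gene (Mve12G010670), the immune transcription factor relish (Mve01G003740) and Mve08G001780. Nearest to HSP70 were a thyroglobulin-like gene (Mve02G004640, 0.0299), a mitochondrial malate dehydrogenase (Mve11G006230), Mve05G011200 and the ribosomal protein genes S9 (Mve01G020590) and L9 (Mve09G012790).

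By the deposited ontology terms, HSP22 and BAG3 are both annotated to the Z disc, the anchoring plate of muscle filaments. The other 39 tested genes with that term had a median log2 fold of 0.35 at 2 against 7.5 mg/L and 0.19 at 4 against 7.5 mg/L. HSP22, HSP70 and DNAJB4-like share unfolded protein binding, whose other 49 tested genes had medians of -0.09 and 0.05 in those comparisons. HSP22 and HSP70 share protein refolding, whose other 9 tested genes had medians of 1.20 and -0.05. These medians match the folds of the HSP70 copies Mve02G001220 and Mve02G001250, so the term is not separate from the copies described above. Both copies passed the filter through 2 mg/L alone, which fixed their higher level there.

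Bulk gill holds several cell types, and more cells of a type cannot be told apart from more RNA per cell. The 31 muscle markers summed to 3454, 3271 and 3988 FPKM in the libraries at 2 mg/L, against 1084 to 1132 FPKM at 4 mg/L and 1163 to 1185 FPKM at 7.5 mg/L. Of the 25 tested, 14 rose and 5 fell at 2 against 7.5 mg/L, and 9 rose and 13 fell at 4 against 7.5 mg/L (8 and 13 without 1 gene that passed the filter through 4 mg/L alone). Of the 31, 2 had no counts at 2 mg/L, none at 4 mg/L and 2 at 7.5 mg/L. The most abundant were paramyosin (Mve09G008510, 3000 ± 442 CPM at 2 mg/L, 485 ± 50.4 CPM at 4 mg/L and 363 ± 10.4 CPM at 7.5 mg/L), a smooth muscle myosin regulatory light chain (Mve13G011250) and the myosin essential light chain (Mve15G003230). The muscle sum was highest in 2 mg/L replicate 3, which also had the highest HSP22 and BAG3 but, within its group, the lowest DNAJB4-like (181.9 CPM). Without that library the log2 fold at 2 against 7.5 mg/L was 4.61 for HSP22 and 2.32 for BAG3. The muscle sums of replicates 1 and 2, 3454 and 3271 FPKM, were also above the controls. Leaving out 1 library therefore cannot separate the muscle sum from the oxygen level. The part of muscle RNA in the levels of HSP22, DNAJB4-like and BAG3 was not tested.

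The 72 cilia markers, for the ciliated epithelium that makes up much of a gill, summed to 2295 to 2347 FPKM at 2 mg/L, 2461 to 2546 FPKM at 4 mg/L and 2813 to 2875 FPKM at 7.5 mg/L, and of 70 tested 33 fell and 18 rose at 2 against 7.5 mg/L, and 39 fell and 10 rose at 4 against 7.5 mg/L. One of them had no counts at 4 mg/L. The most abundant were radial spoke head genes Mve02G007880, Mve02G011310 and Mve07G009080. HSP70 was lower at both low oxygen levels, as the cilia sum was. In FPKM, which carry no TMM factor, HSP70 was lowest at 4 mg/L and the cilia sum at 2 mg/L. Which low oxygen level was the lower for cilia markers depended on the scaling. At 2 against 4 mg/L 25 rose and 13 fell with TMM, and 18 rose and 24 fell with total counts. The 7 hemocyte markers summed to 547 to 553 FPKM at 2 mg/L, 1193 to 1219 FPKM at 4 mg/L and 864 to 883 FPKM at 7.5 mg/L, led by a hemocyte transglutaminase (Mve06G014840), macrophage-expressed gene 1 (Mve16G014180) and allograft inflammatory factor (Mve05G011480); 1 had no counts at 2 mg/L, none at 4 mg/L and 2 at 7.5 mg/L. Of the 5 tested, 1 rose and 3 fell at 2 against 7.5 mg/L, and 2 rose and 2 fell at 4 against 7.5 mg/L. The transglutaminase averaged 132.5, 780 and 245 FPKM at 2, 4 and 7.5 mg/L, so the peak of the sum rests largely on this gene. At 4 mg/L macrophage-expressed gene 1 fell to 0.635 and allograft inflammatory factor to 0.81 of the control level. HSP90 and the hemocyte sum were both highest at 4 mg/L, and HSP90 was above its control at 2 mg/L and the hemocyte sum was below it. The part of these cell types in the levels of HSP70 and HSP90 was not tested.

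**Figure D5:**
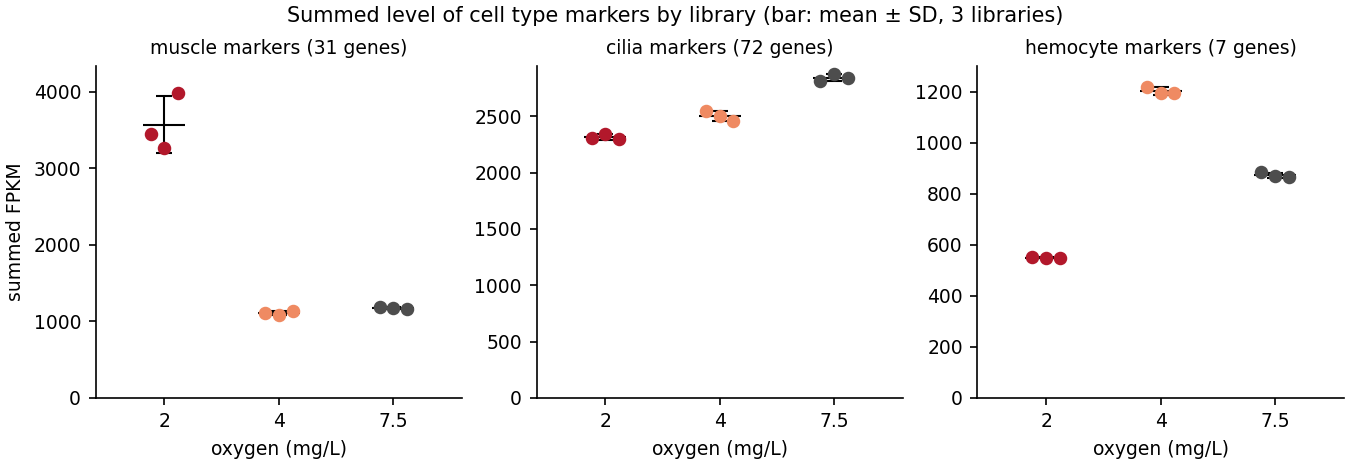
Summed FPKM of markers of muscle (31 genes), cilia (72 genes) and hemocytes (7 genes), on vertical axes that start at 0, against dissolved oxygen in mg/L; points are libraries and bars the mean ± SD of 3. The muscle sum is 3271 to 3988 FPKM at 2 mg/L and 1084 to 1185 FPKM in the other libraries.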

How the data were processed

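The deposited table holds the authors' raw counts per gene and their FPKM values for 9 libraries, per the file headers. The submitters' processing notes name cutadapt 1.9, HISAT2 2.2.1, StringTie 2.1.6, DESeq2 and edgeR. Library preparation marked strand, per the labels' protocols, but its use in counting and the genome build are not given in the sources used here. Coordinates and names are those of the deposited table. Libraries held 26994566 to 32246147 counts and share 1 batch label. Reads are not independent molecules, so the floor of 3 counts covers counting error only.

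Genes averaging 1 FPKM or more were tested with edgeR 4.0.16 (R 4.3.3, quasi-likelihood, TMM, 1 coefficient per group, Benjamini-Hochberg), with a common biological variation of 11.8%. SEs were derived from the log2 fold and its F statistic. The code was tested on simulated counts. Alternatives used DESeq2 1.42.0 and limma 3.58.1.

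The 5 genes and the lists were chosen with earlier results of these data known, and the words that select each list were completed once descriptions could be read. Named genes were, per list, the 3 largest folds among called genes without overlap in each low oxygen comparison, plus heat shock factors, copies, 2 flanking genes per side, the 5 most alike and the 3 most abundant markers per cell type. CHIP, Mve09G009340 and Mve02G012900 were named after their values were seen.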

Additional observations from a re-analysis of the deposited data

How the results depend on the processing

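The folds of the 5 genes were compared over 17 alternative settings, leaving out limma on log2(FPKM + 0.1). Among the folds compared, none changed sign where the groups of that gene did not overlap. With total counts the log2 folds at 2 against 7.5, 4 against 7.5 and 2 against 4 mg/L were -0.36, -0.47 and 0.11 for HSP70, 0.41, 0.79 and -0.39 for HSP90 and 2.18, 1.81 and 0.37 for BAG3, and 3.22 and 0.70 for DNAJB4-like at 2 against 7.5 and 2 against 4 mg/L. With limma on log2(FPKM + 1), which understates changes of low genes, they were -0.355, -0.46 and 0.11 for HSP70, 0.41, 0.80 and -0.39 for HSP90, 3.05, 2.36 and 0.68 for DNAJB4-like, 2.095, 1.74 and 0.36 for BAG3, and 3.92 and 3.93 for HSP22 at 2 against 7.5 and 2 against 4 mg/L. Without a filter on low values HSP70 at 2 against 7.5 mg/L was -0.185. Leaving out 1 library at a time gave 0.23 to 0.28 for HSP70 at 2 against 4 mg/L. With genes of at least 5 FPKM, 2970 rose and 3005 fell among all genes at 2 against 7.5 mg/L, 3142 and 3106 at 4 against 7.5 mg/L, and 2991 and 2932 at 2 against 4 mg/L. Fewer genes were tested there. In the network, 18 rose at 2 against 7.5 mg/L with total counts and 20 with limma on log2(FPKM + 0.1); with genes of at least 5 FPKM 16 fell at 2 against 7.5 mg/L, 11 fell at 4 against 7.5 mg/L and 10 rose at 2 against 4 mg/L.

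The causes of the other shifts were not tested. Replicate numbers give no pairing: correlations of deviations between libraries of the same number were -0.026 to 0.006. With the replicate block the HSP22 log2 fold at 2 against 7.5 mg/L was 4.72, and 4722 genes rose and 4786 fell; in the network 27 rose and 25 fell. HSP22 at 4 and 7.5 mg/L, with 105 to 121 counts per library, has the least depth of the 5 genes.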
